A study of Mus musculus with 23 samples.

Results

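Microarray values of 9 genes of epithelial defence that respond to the gut microbiota were read in the mouse ileum: Reg3b, Reg3g, Saa1, Saa2, Saa3, Nos2, Duox2, Duoxa2 and Pigr. The members were all array probes whose gene name in the scanner files was one of these 9, which gave 12 probes, all of them among the 37161 probes (23912 gene names) with a value in the deposited table. Duox2 had 3 probes, Pigr had 2 and each other gene had 1. The probe with the highest mean over the arrays stood for its gene. Values are on the log2 scale of that table, so a difference of 1 is a 2-fold change in signal, and the level of a probe can be compared between arrays but not with the level of another probe.

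The intestinal epithelium keeps bacteria at a distance with secreted proteins, reactive oxygen and nitrogen species and exported antibody. Reg3b and Reg3g are secreted C-type lectins that bind bacteria, and Saa1, Saa2 and Saa3 are serum amyloid A proteins, of which Saa1 and Saa2 are made by liver and gut epithelium and Saa3 also by macrophages and adipocytes. Nos2 is the inducible nitric oxide synthase, Duox2 is an oxidase that releases hydrogen peroxide at the cell surface, Duoxa2 is the factor that matures it, and Pigr carries IgA across the epithelium. Many of these genes are low in germ-free mice and are induced through interleukin-22, STAT3 and microbial sensing.

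The 23 arrays each held the ileum RNA of 1 male C57BL/6J mouse. Wild-type (WT) mice were bought at 6 weeks of age, whereas mice lacking the pregnane X receptor (Pxr-/-, gene Nr1i2) came from a line bred in house for 10 years. Genotype and colony therefore cannot be told apart. All mice were acclimatized for 2 weeks before they were allocated to groups, and no age was given for the Pxr-/- mice. Pregnenolone 16α-carbonitrile (PCN), a steroid ligand of the mouse receptor, was injected into the abdomen in corn oil at 100 mg/kg each day for 4 days, and control mice (CONT) received the oil. Tissue was taken from fed mice at ZT 6, 6 h after the final injection, and the groups were WT CONT (n = 6), WT PCN (n = 5), Pxr-/- CONT (n = 6) and Pxr-/- PCN (n = 6).

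The arrays had been washed in 2 batches, with 3, 2, 3 and 3 arrays of these groups in batch 1 and 3 of each in batch 2. Between 60.9% and 67.3% of probes per array were well above background and at most 2 spots were saturated. The Nr1i2 probe averaged 12.14 ± 0.16 (SD, n = 6) in WT CONT and 11.73 ± 0.36 (n = 6) in Pxr-/- CONT, and whether it lies in the deleted part was not analysed here, so it checks nothing. Cyp3a11, a drug-metabolizing enzyme controlled by the receptor, rose with PCN in WT by 3.53 on the log2 scale (limma adjusted p = 1.49e-06) and differed by -0.05 (adjusted p = 0.952) in Pxr-/-. Of the same group, Cyp2b10 rose in WT from a mean log2 level of 6.93 in CONT to 11.49 in PCN (adjusted p = 1.1e-07) and Cyp2c55 rose by 3.51 (adjusted p = 0.000149). In Pxr-/- Cyp2c55 rose as well, by 1.58 (adjusted p = 0.0484), and Cyp2b10 differed by 0.71 (adjusted p = 0.252). Summed levels by array were 19.35 to 19.84 for 11 enterocyte genes, 18.94 to 19.45 for 6 ileum genes and 16.71 to 17.70 for 5 measured colon genes. As probe levels cannot be set against each other, these describe how alike the arrays were and do not identify the tissue.

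The sequences before the start sites are shown first because the 3 serum amyloid A genes, which lie near each other on chromosome 7, did not behave alike. On build GRCm38.p6 the RefSeq start sites of Saa3 and Saa1 are separated by 27303 bases and those of Saa1 and Saa2 by 8852 bases. The 250 bases before each start follow, 5′ to 3′ on the strand of the gene, with capitals for matches to a C/EBP motif (TTNNGNAA, read on both strands). They are Saa1 at chr7:46742981-46743230 on the minus strand, Saa2 at chr7:46751583-46751832 on the plus strand and Saa3 at chr7:46715677-46715926 on the minus strand.
Saa1: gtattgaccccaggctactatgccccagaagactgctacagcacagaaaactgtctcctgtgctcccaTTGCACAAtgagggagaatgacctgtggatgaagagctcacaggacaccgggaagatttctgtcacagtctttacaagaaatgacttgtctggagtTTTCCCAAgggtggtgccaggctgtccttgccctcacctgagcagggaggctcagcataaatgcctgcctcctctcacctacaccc
Saa2: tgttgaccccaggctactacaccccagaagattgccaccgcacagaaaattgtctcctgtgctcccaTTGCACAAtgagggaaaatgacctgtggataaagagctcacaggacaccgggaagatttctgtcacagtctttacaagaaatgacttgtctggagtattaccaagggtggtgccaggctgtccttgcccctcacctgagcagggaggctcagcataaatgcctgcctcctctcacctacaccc
Saa3: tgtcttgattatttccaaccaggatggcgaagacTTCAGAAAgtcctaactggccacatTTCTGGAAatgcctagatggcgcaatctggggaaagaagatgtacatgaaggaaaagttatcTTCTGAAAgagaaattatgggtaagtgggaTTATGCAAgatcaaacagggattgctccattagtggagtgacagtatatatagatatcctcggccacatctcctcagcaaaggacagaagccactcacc
In a global alignment Saa1 and Saa2 had 94.8% identical positions. Saa1 and Saa3 had 48.2%, while the pairs of genes from different families had 42.3% to 51.1%. The C/EBP motif was present in the window of 36.8% of 32851 RefSeq windows of this length and had 4 matches in Saa3, 2 in Saa1 and 1 in Saa2. None of the 3 windows held the string GGGNNTTCC, used here for NF-kB (present in 4.98% of all windows), or the STAT motif TTCNNNGAA (7.02%). Other forms of the NF-kB site were not searched, so the 3 windows may hold them.

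The pair of lectins is shown for the same comparison, with capitals for a STAT match in Reg3b (chr6:78370635-78370884, plus strand) and an NF-kB match in Reg3g (chr6:78468875-78469124, minus strand).
Reg3b: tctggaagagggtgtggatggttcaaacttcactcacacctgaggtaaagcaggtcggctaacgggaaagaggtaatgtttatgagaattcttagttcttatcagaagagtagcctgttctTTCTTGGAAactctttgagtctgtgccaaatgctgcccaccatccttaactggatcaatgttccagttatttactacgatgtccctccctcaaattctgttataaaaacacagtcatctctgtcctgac
Reg3g: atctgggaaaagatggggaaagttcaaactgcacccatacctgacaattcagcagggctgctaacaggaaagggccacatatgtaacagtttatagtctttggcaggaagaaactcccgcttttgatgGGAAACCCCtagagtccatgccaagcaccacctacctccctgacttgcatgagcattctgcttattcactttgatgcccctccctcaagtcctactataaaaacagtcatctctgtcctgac
These windows were 68.4% identical. The half-site AGTTCA, which the pregnane X receptor can bind as part of a repeat, was found in the windows of Reg3g and Duox2, and in 11.8% of all windows. Duox2 and Duoxa2 point away from each other on chromosome 2, with 672 bases between their start sites. The table of start-site sequences matched 8 of the 9 members, with no entry used for Nos2. A match is a string of letters and not evidence of binding.

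The probes of Pigr are shown because they do not measure the same thing. The array annotation, on build mm9, places the brighter probe at chr19:5932558-5932617 and the dimmer one at chr1:132741106-132741165, the chromosome of Pigr. Both probes follow, with G in capitals in the first.
Pigr, brighter probe: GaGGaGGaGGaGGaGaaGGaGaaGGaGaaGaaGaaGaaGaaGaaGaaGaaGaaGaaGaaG
Pigr, chromosome 1 probe: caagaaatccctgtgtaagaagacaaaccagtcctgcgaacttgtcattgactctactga
The brighter probe held 33 A, 27 G and no other base. Of the 5 array genes whose deviations from the group means were most like its own (Pearson r 0.91 to 0.94 over 23 arrays), 4 were read by probes with 59 or 60 purines of 60 bases. In all, 15 probes of the array consisted of A and G only. Pigr is therefore described below by its chromosome 1 probe, a choice made after the sequences were seen, with the brighter probe beside it.

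Saa3 was the member with a called PCN effect in both genotypes, where called means that the adjusted p was 0.05 or lower and the change was over 1.5-fold. In WT CONT the 6 arrays ranged from 10.28 to 12.32 with a median of 10.94. The 5 WT PCN arrays read 12.13, 12.46, 12.53, 12.55 and 12.99, so that 4 of the 5 lay above every WT CONT array. In Pxr-/- CONT the range was 11.85 to 12.74 with a median of 12.17, and in Pxr-/- PCN it was 12.46 to 14.07 with a median of 13.41. The treated Pxr-/- arrays were higher than all their controls in 5 of 6 cases. The effect of PCN was 1.40 ± 0.31 (SE) on the log2 scale in WT, 2.63-fold (limma adjusted p = 0.0225), and 1.09 ± 0.30 in Pxr-/-, 2.13-fold (adjusted p = 0.0427). Averaged over the genotypes it was 1.24 with a 95% interval of 0.80 to 1.69 (limma adjusted p = 0.001).

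The Saa3 effects in the 2 genotypes differed by 0.31 with a 95% interval of -0.58 to 1.20 (limma adjusted p = 1). Among all 23912 genes 0.857% were called for PCN in WT and 1.2% in Pxr-/-, against 1 of 9 members in each. For the difference between the PCN effects 0.0962% were called, against no member. An unadjusted p under 0.05 was found there for 1 member, Reg3b, against 4.75% of all genes. For PCN it was found for 3 of 9 members in WT (12.9% of all genes), 7 in Pxr-/- (20.5%) and 6 on average (25.6%). These counts are descriptions, since the members vary together on single arrays. The 2 single-genotype calls of Saa3 were not stable. The WT call was lost within wash batches 1 and 2 (1.20 and 1.51, adjusted p = 0.78 and 0.307) and without WT CONT replicate 1, 2, 5 or 6 or WT PCN replicate 2 or 5 (adjusted p up to 0.071). The Pxr-/- call was lost within wash batches 1 and 2 (1.01 and 1.17, adjusted p = 0.599 and 0.197) and without WT CONT replicate 6, Pxr-/- CONT replicate 1, 2, 3, 5 or 6, or Pxr-/- PCN replicate 1, 4, 5 or 6 (adjusted p up to 0.106). The averaged Saa3 effect was called without any single array (1.15 to 1.38, adjusted p at most 0.00265), at 1.34 within wash batch 2 (adjusted p = 0.0463) and not within wash batch 1, at 1.11 (adjusted p = 0.162).

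Saa1 and Saa2 moved the other way. Saa1 ranged from 13.64 to 16.33 in WT CONT (median 15.41), and the WT PCN arrays read 13.01, 13.26, 14.43, 14.57 and 15.89. In Pxr-/- CONT it ranged from 15.62 to 17.03 (median 16.39) and in Pxr-/- PCN from 14.58 to 16.35 (median 14.83). The groups overlapped in both genotypes, with 2 of 5 WT PCN and 5 of 6 Pxr-/- PCN arrays under all their controls. Saa2 had the same picture, from 13.92 to 16.61 (median 15.56) in WT CONT, at 13.02, 13.54, 14.61, 14.81 and 16.03 in WT PCN, from 15.81 to 17.31 (median 16.58) in Pxr-/- CONT and from 14.84 to 16.60 (median 15.04) in Pxr-/- PCN. The array with the highest Saa1 and Saa2 in each PCN group was WT PCN replicate 1 and Pxr-/- PCN replicate 6.

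With the genotypes averaged, PCN lowered Saa1 by 2.27-fold (log2 difference -1.18 ± 0.32, limma adjusted p = 0.0252) and Saa2 by 2.28-fold (-1.19 ± 0.33, adjusted p = 0.025). Neither was called within a genotype: Saa1 differed by -1.09 (adjusted p = 0.345) in WT and -1.27 (adjusted p = 0.111) in Pxr-/-, and Saa2 by -1.13 (adjusted p = 0.321) and -1.25 (adjusted p = 0.12). Within wash batch 1 the averaged effects were -0.68 and -0.66 and within wash batch 2 they were -1.63 and -1.66, without a call in either. Without WT PCN replicate 5 both calls were lost (adjusted p = 0.052 and 0.0514), and without WT PCN replicate 2 that of Saa1 was (adjusted p = 0.0516). Saa1 and Saa2 have near-identical transcripts and the annotation used here gives each as an older name of the other, so a probe of one may bind the other, which was not tested. Of all genes, 1.24% were called for the averaged effect, against 3 of 9 members.

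**Figure D1:**
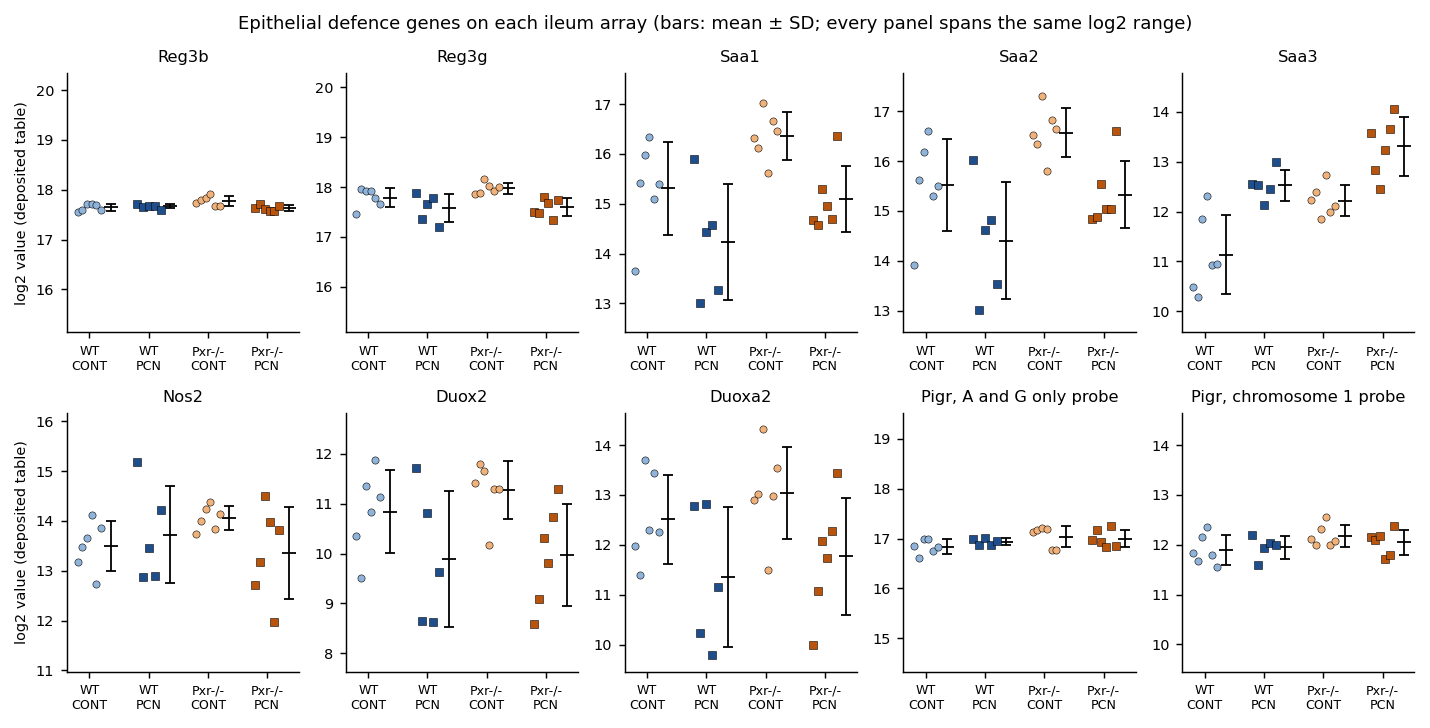
Value of each member on each of the 23 arrays, by group (vertical axis: log2 value of the deposited table; points: arrays in order of replicate number; black bars: mean ± SD); every panel spans the same range. Saa3 is higher and Saa1 and Saa2 lower in the PCN groups, while Reg3b stays within 17.55 to 17.92 on all arrays.

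Since the 3 genes were read on the same arrays, the log2 ratio of Saa3 to the mean of Saa1 and Saa2 was also compared, as a description chosen after Saa3 was seen to be higher and Saa1 and Saa2 lower. It combines those differences and adds no separate evidence, so no test is given. The ratio is between probes, so its level has no meaning, but its differences between groups do. It averaged -4.28 ± 0.62 (SD) in WT CONT and -1.79 ± 1.30 in WT PCN, with 4 of 5 treated arrays above all controls. In Pxr-/- it averaged -4.25 ± 0.80 in CONT and -1.90 ± 0.69 in PCN, with 6 of 6 treated arrays above all controls. The PCN differences were 2.49 in WT and 2.35 in Pxr-/-. Between the genotypes the ratio differed by 0.03 in CONT and by -0.11 in PCN.

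**Figure D2:**
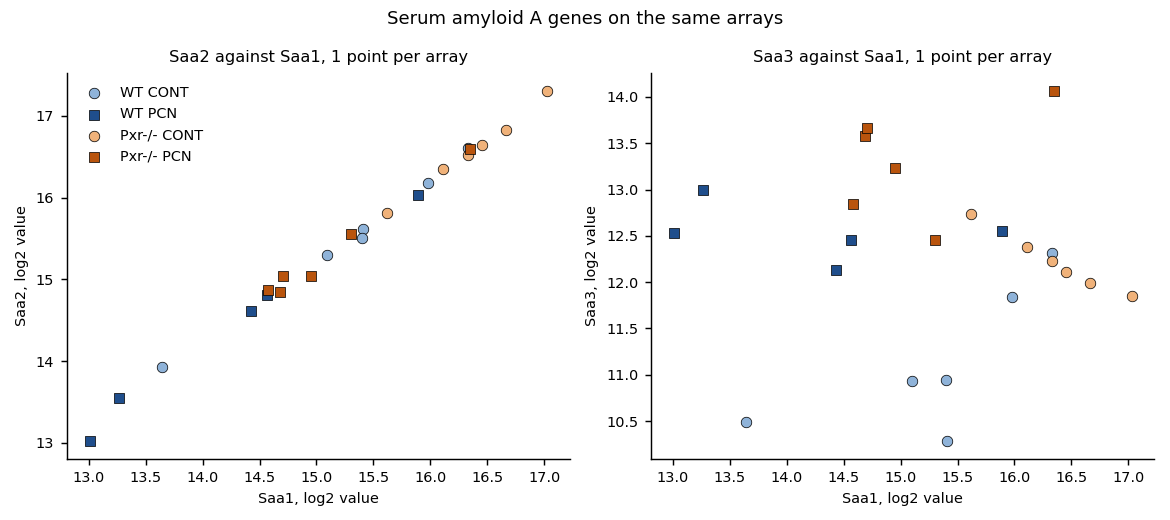
Saa2 (left) and Saa3 (right) against Saa1 on the log2 scale, 1 point per array, coloured by genotype and with squares for PCN. Saa2 follows Saa1 on a line in all groups, whereas for Saa3 most PCN arrays lie above the CONT arrays of their genotype, 4 of 5 in WT and 5 of 6 in Pxr-/- above all of them.

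The secreted lectins changed little in size. Reg3g ranged from 17.46 to 17.95 in WT CONT (median 17.86), read 17.21, 17.36, 17.66, 17.79 and 17.88 in WT PCN, ranged from 17.87 to 18.16 in Pxr-/- CONT (median 17.96) and from 17.33 to 17.81 in Pxr-/- PCN (median 17.59). In Pxr-/- all 6 PCN arrays were below all 6 CONT arrays, whereas the WT groups overlapped. The PCN effect on Reg3g was -0.38 ± 0.11 (SE) in Pxr-/- (limma adjusted p = 0.059), -0.20 ± 0.12 in WT (adjusted p = 0.539) and -0.29 ± 0.08 averaged (adjusted p = 0.0287). The averaged effect passed the p threshold but at 1.22-fold it stayed under the fold threshold, so it was not called.

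Reg3b was the steadiest member. Its medians were 17.64, 17.67, 17.76 and 17.63 in WT CONT, WT PCN, Pxr-/- CONT and Pxr-/- PCN, and its highest array was 1.29-fold above its lowest. PCN changed it by 0.03 (limma adjusted p = 0.927) in WT and by -0.14 (adjusted p = 0.154) in Pxr-/-. Both lectin probes stood near the top of the measured scale, with 39 probes brighter than Reg3b and 34 brighter than Reg3g, and neither was saturated on any array.

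The hydrogen peroxide genes had differences as large as those of Saa1, with a wider spread. Duox2 ranged from 9.51 to 11.88 in WT CONT (median 10.98), read 8.62, 8.65, 9.63, 10.82 and 11.71 in WT PCN, ranged from 10.17 to 11.80 in Pxr-/- CONT (median 11.36) and from 8.58 to 11.29 in Pxr-/- PCN (median 10.07). The groups overlapped in both genotypes. The averaged PCN effect was -1.13 ± 0.38 (SE) with a limma adjusted p of 0.0615, so it was not called, and the effects were -0.96 (adjusted p = 0.519) in WT and -1.30 (adjusted p = 0.163) in Pxr-/-. The other probes of Duox2 gave averaged effects of 2.01-fold (adjusted p = 0.0425, called) and 1.87-fold (adjusted p = 0.0695) in the same direction, so the call depended on the probe. It also depended on single arrays, as Duox2 was called without WT CONT replicate 2, WT PCN replicate 1 or 3, Pxr-/- CONT replicate 4 or Pxr-/- PCN replicate 6 (adjusted p from 0.0183). With the 8 array slides as a random block the averaged effect was -1.13 and called (adjusted p = 0.0481), and with slide as a fixed block it was -1.09 and called (adjusted p = 0.0164).

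Duoxa2, the maturation factor, ranged from 11.39 to 13.71 in WT CONT (median 12.28) and read 9.79, 10.23, 11.15, 12.78 and 12.83 in WT PCN. It ranged from 11.49 to 14.32 (median 13.00) in Pxr-/- CONT and from 9.99 to 13.45 (median 11.91) in Pxr-/- PCN. Its averaged PCN effect was -1.22 with a 95% interval of -2.11 to -0.33 and a limma adjusted p of 0.0788. It was called without WT PCN replicate 1 or 3, Pxr-/- CONT replicate 4 or Pxr-/- PCN replicate 6 (adjusted p from 0.0359). With slide as a fixed block it was called too (-1.15, adjusted p = 0.0317). Both partners had lower means under PCN in both genotypes.

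Nos2, the nitric oxide synthase, had no common direction. It ranged from 12.72 to 14.12 in WT CONT (median 13.57) and read 12.88, 12.90, 13.46, 14.22 and 15.17 in WT PCN. It ranged from 13.75 to 14.37 (median 14.07) in Pxr-/- CONT and from 11.98 to 14.49 (median 13.49) in Pxr-/- PCN. The effect was 0.22 (limma adjusted p = 0.898) in WT and -0.70 (adjusted p = 0.32) in Pxr-/-, and the difference between them, 0.92 with a 95% interval of -0.23 to 2.07, was not called (adjusted p = 1). In Pxr-/- the SD was 0.24 in CONT and 0.92 in PCN.

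Pigr, the IgA carrier, did not pass the test in any comparison. By the chromosome 1 probe its medians were 11.81, 11.99, 12.10 and 12.12 in WT CONT, WT PCN, Pxr-/- CONT and Pxr-/- PCN, and all groups overlapped. The averaged PCN effect was -0.04 with a 95% interval of -0.25 to 0.18, and by the brighter probe it was 0.03 with an interval of -0.11 to 0.17. PCN effects over 1.5-fold in either direction lie outside both intervals, since 1.5-fold is 0.58 on this scale.

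**Figure D3:**
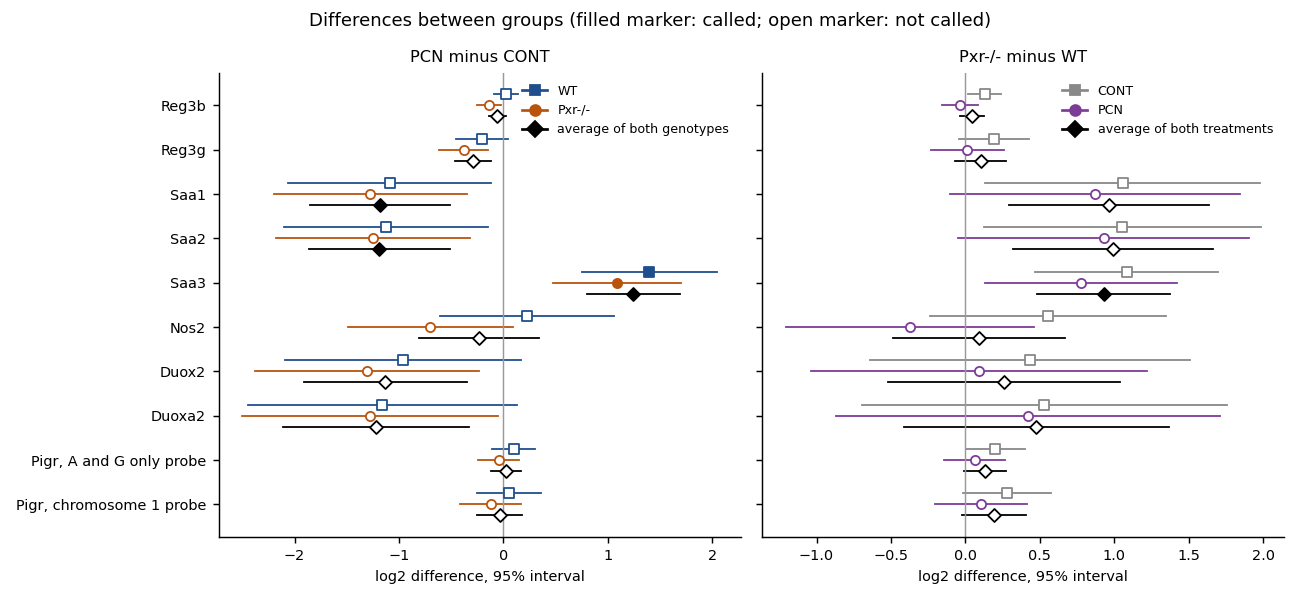
Log2 differences with 95% intervals from the fit to all 23 arrays, for PCN (left: WT, Pxr-/- and their average) and for genotype (right: CONT, PCN and their average); filled markers are called. The filled markers are Saa3 in all 3 PCN estimates and in the averaged genotype difference, and Saa1 and Saa2 in the averaged PCN effect.

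Between the genotypes, all 9 members had higher group means in Pxr-/- CONT than in WT CONT, by 0.13 to 1.08 (Pigr by its brighter probe), with a median of 0.53 against -0.00 over all genes. None was called, against 0.184% of all genes. An unadjusted p under 0.05 was found for 5 of the 9, or 4 with Pigr by its chromosome 1 probe, against 9.72% of all genes. The largest differences were those of Saa3, 1.08 ± 0.30 (SE, limma adjusted p = 0.157), Saa1, 1.06 ± 0.45 (adjusted p = 0.466), and Saa2, 1.05 ± 0.45 (adjusted p = 0.471). Without WT CONT replicate 4 the Saa3 difference was called (1.33, adjusted p = 0.0412). The count of 9 of 9 is a description, since the members vary together on single arrays and share the same mice.

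Under PCN 7 of 9 members were higher in Pxr-/-, with a median of 0.09, and none was called against 0.456% of all genes. An unadjusted p under 0.05 was found for 1 member, Saa3, against 7.46% of all genes. The differences were 0.78 for Saa3 (limma adjusted p = 0.534), 0.87 for Saa1 (adjusted p = 0.789) and 0.93 for Saa2 (adjusted p = 0.749). With the treatments averaged, Saa3 was called at 1.90-fold higher in Pxr-/- (0.93 ± 0.22, limma adjusted p = 0.0303), against 0.506% of all genes, whereas Saa1 (0.96, adjusted p = 0.19) and Saa2 (0.99, adjusted p = 0.175) were not. The Saa3 call was lost within wash batches 1 and 2 (1.18 and 0.72, adjusted p = 0.121 and 0.601) and without WT CONT replicate 1, 2, 5 or 6, WT PCN replicate 2, 3 or 4, Pxr-/- CONT replicate 1 or 2, or Pxr-/- PCN replicate 6 (adjusted p up to 0.0689). As the genotypes came from different colonies, a difference of genotype and one of colony cannot be told apart.

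The spread between mice of a group set most of these members apart from the bulk of the array. The residual SD, after the group and wash batch terms, was 0.17 for the median probe of the table. It was 1.13 for Duoxa2, 0.99 for Duox2, 0.86 for Saa2, 0.85 for Saa1, 0.73 for Nos2 and 0.56 for Saa3, which placed these probes between percentiles 98.3 and 99.7 of all probes. From the lowest to the highest of all 23 arrays the signal of Duoxa2 differed 23-fold, that of Saa2 19.5-fold and that of Nos2 9.17-fold. Reg3g was at percentile 67.8, the chromosome 1 probe of Pigr at 84.7 and Reg3b at 0.88. Among the 79 probes with a mean within 0.5 of that of Reg3b, Reg3b was at percentile 8.86. Bulk tissue cannot tell fewer cells of a type from less RNA per cell, which holds for every value given here.

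Arrays that were high in 1 member were often high in another. After removal of the group means, 39 of 44 pairs of member probes correlated above 0 over the 23 arrays. These pairs cover 9 genes with both Pigr probes, without the pair of the Pigr probes themselves. By Pearson r, 10 pairs had an adjusted p of at most 0.05 in a permutation test. The test shuffled the deviations freely although group means had been removed, so its p-values are somewhat too small. The 10 pairs include Reg3b with the brighter Pigr probe (adjusted p = 0.0357) and count Saa1 and Saa2 separately with the same partners. By Spearman rho that pair of Reg3b did not pass (permutation test, adjusted p = 0.0522). Neither did Duox2 with Saa1 (adjusted p = 0.0834) or with Saa2 (adjusted p = 0.0669). Saa1 and Saa2 had a Pearson r of 0.996 (Spearman rho 0.994) and Duox2 and Duoxa2 an r of 0.924 (rho 0.924), each with an adjusted p of 0.000147 for r and 0.00022 for rho. Without the 2 arrays farthest from the median these were 0.994 and 0.913, and within wash batches 1 and 2 they were 0.996 and 0.996 for the first pair and 0.953 and 0.950 for the second.

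Reg3g followed Saa1 with an r of 0.808 (rho 0.799; permutation test, adjusted p = 0.00022 and 0.000293), which was 0.739 without the farthest 2 arrays and 0.749 and 0.848 within the wash batches. Saa1 and Duoxa2 had an r of 0.575 (rho 0.550, adjusted p = 0.0207 and 0.0451), with 0.538 after leaving out 2 arrays and 0.613 and 0.567 within batches. Reg3b and Pigr by its chromosome 1 probe had an r of 0.706 (rho 0.669, adjusted p = 0.00229 and 0.00642), with 0.667, 0.787 and 0.639 in the same order. On quantile-normalized scanner signal this last r was 0.497.

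Saa3 had no adjusted p of at most 0.05 with any member. Its r with Saa1 was 0.258 (rho 0.096; permutation test, adjusted p = 0.354 and 0.771), and within wash batches 1 and 2 it was 0.693 and 0.043. Its r with Reg3g was -0.02, but 0.908 in wash batch 1 and -0.403 in wash batch 2. With Nos2 it was 0.07 (0.504 and -0.161 within batches) and with Duoxa2 0.08 (0.366 and -0.081). For each of these genes r was higher in wash batch 1 than in wash batch 2, where it was near 0 for Saa1 and Duoxa2. The difference between the batches was not tested. The highest r of Saa3 with a member was 0.503, with Pigr by the chromosome 1 probe (adjusted p = 0.0511), which fell to 0.260 without the 2 farthest arrays.

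**Figure D4:**
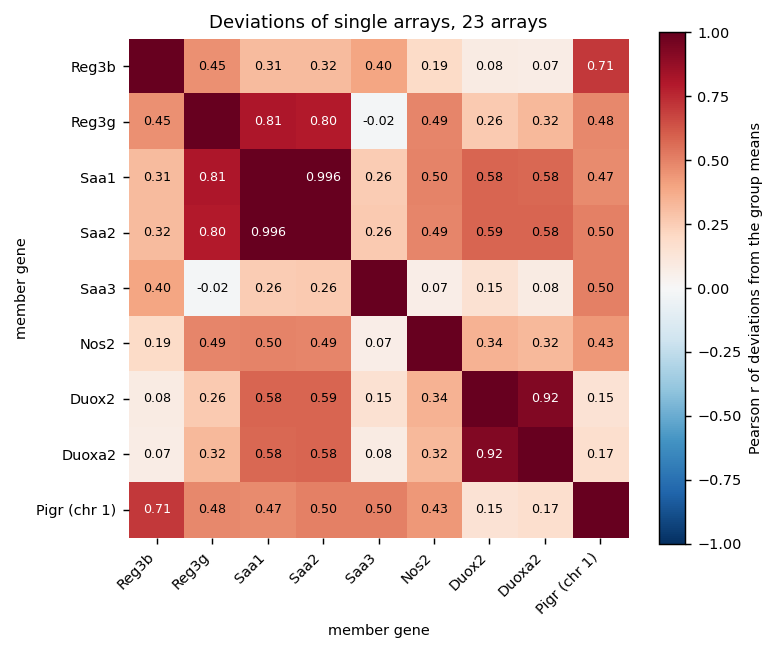
Pearson r between members over 23 arrays, computed on deviations from the group means (colour scale from -1 to 1; the diagonal is left blank). Saa1 with Saa2, Duox2 with Duoxa2 and Reg3g with both Saa1 and Saa2 have an r of 0.796 or more, and no member has an r above 0.503 with Saa3.

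Some genes outside the 9 followed single members closely over the same arrays, again after removal of the group means and given as description. The genes most like Duoxa2 were Duoxa1, its paralog and partner of Duox1 (r 0.95), Duox2, Fam3b (0.87), Foxo6 (0.85) and Car4, a carbonic anhydrase (0.83). Those most like Duox2 were Duoxa2, Duoxa1 (0.87) and Elf3, an epithelial transcription factor (0.82), which was also among those of Saa2 (0.81). The genes most like Nos2 were Zc3h12a, an RNase that limits inflammatory transcripts (0.85), Dennd2d (0.85), Barx2 (0.83) and Ccl28, a chemokine that attracts IgA plasma cells (0.81). For Saa3 the highest r was 0.75, with Sgtb. Beside Saa2 and Reg3g, the genes most like Saa1 were AK155189 (0.87) and 1110059E24Rik (0.86), and the gene most like Reg3b was 2810471M01Rik (0.82).

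The Duox genes belong to the wider NADPH oxidase family, of which other genes were read beside them. Duoxa1, a maturation factor and not an oxidase subunit, was counted in this list. None of its 12 genes was called for PCN, in WT, in Pxr-/- or on average. Their median averaged effect was 0.02 against -0.00 over all genes. On average 2 of them, Cybb and Ncf4, reached a limma adjusted p of 0.0327 and 0.033 with 0.30 and 0.37, under the fold threshold. Duoxa1 differed by -0.52 (limma adjusted p = 0.144) on average and its probe was well above background on 18 of 23 arrays.

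Among 19 measured secreted proteins of the same kind, PCN raised Lcn2, a siderophore-binding protein of epithelium and neutrophils, in both genotypes. Lcn2 ranged from 8.69 to 9.14 in WT CONT, 9.10 to 10.09 in WT PCN, 9.07 to 9.73 in Pxr-/- CONT and 9.87 to 10.51 in Pxr-/- PCN. The effect was 0.78 (limma adjusted p = 0.00924) in WT and 0.76 (adjusted p = 0.00695) in Pxr-/-. No other gene of that list was called for PCN, and the median averaged effect was 0.10. Retnlb, a goblet cell protein, had differences of 0.77 (limma adjusted p = 0.784) in WT and 1.57 (adjusted p = 0.265) in Pxr-/-, and Reg4, another secreted lectin, of 0.07 (adjusted p = 0.982) and 1.28 (adjusted p = 0.184).

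In the interleukin-22 and STAT3 list of 19 measured genes, 2 rose with PCN in both genotypes. Osmr, the oncostatin M receptor, rose by 0.92 in WT (limma adjusted p = 0.000888) and by 0.92 in Pxr-/- (adjusted p = 0.000926), and no array of a PCN group fell below any of its controls. Il6 rose by 0.79 and 1.09 (adjusted p = 0.000153 and 4.35e-06), from at most 5.64 in WT CONT and 5.41 in Pxr-/- CONT to at least 6.04 and 6.17 under PCN, with its probe well above background on 13 of 23 arrays. Il22 itself had values of -1.08 (adjusted p = 0.441) and -0.90 (adjusted p = 0.334), its probe being well above background on 16 arrays. Tifa, an adaptor of bacterial sensing, was called lower on average (-0.96, adjusted p = 0.0155). Between the genotypes under PCN 1 gene of the list was called, against 0.456% of all genes. This was Il22ra2, with a mean of 9.02 in Pxr-/- PCN and 9.80 in WT PCN (log2 difference -0.78).

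Of 21 genes of microbial sensing and NF-kB, Tlr1 was called in WT (0.72, limma adjusted p = 0.00664) and none in Pxr-/-. Among 16 measured cytokine and chemokine genes, Cxcl5, a neutrophil attractant, rose by 1.57 in both genotypes (limma adjusted p = 0.0156 and 0.00919), Il1r1 rose by 0.59 in Pxr-/- (adjusted p = 0.0296), and Cxcl1 was called on average (0.87, adjusted p = 0.00917). The median effects of this list were 0.15 in WT and -0.00 in Pxr-/-.

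A few markers of other cells were called for PCN, as Saa3 was. Of 11 neutrophil genes measured, S100a8 and S100a9 rose with PCN in WT by 1.63 and 2.16 (limma adjusted p = 0.0398 and 0.0162) and in Pxr-/- by 2.56 and 2.90 (adjusted p = 0.00091 and 0.00108), and Retnlg and Stfa2l1 rose in Pxr-/- by 1.35 and 0.99 (adjusted p = 0.0184 and 0.0076), with probes well above background on 14 and 8 arrays. S100a9 ranged from 5.92 to 8.06 in WT CONT, 8.73 to 10.40 in WT PCN, 6.55 to 8.19 in Pxr-/- CONT and 8.99 to 12.11 in Pxr-/- PCN, with no overlap between treated and control arrays. The summed level of the list, most of which is the signal of the Csf3r probe, was 15.23 to 15.63, 15.34 to 15.70, 15.18 to 15.64 and 15.40 to 15.60 in these groups. The mean log2 level over the 11 genes, in which each gene weighs the same, was 6.70 to 7.10, 7.26 to 7.79, 6.88 to 7.17 and 7.27 to 8.22. With the genotypes averaged, 5 of the 11 were called higher under PCN (45.5%), against 1.24% of all genes called. Mpo, Elane, Camp and Ly6g, also in the neutrophil list, were measured above background on 13 to 23 arrays. Their averaged effects were -0.24 to 0.10, with no call. These genes were named after their values were seen, and whether neutrophils in the ileum express them was not tested. Of 12 macrophage genes Cd68 was called in Pxr-/- (0.60, limma adjusted p = 0.00695). The effects of this list ran from 0.18 to 0.60 in Pxr-/- (median 0.34) and from -0.06 to 0.38 in WT (median 0.17). On average they ran from 0.12 to 0.49 (median 0.26, against -0.00 over all genes), with no call. The part of these cells in the Saa3 effect was not tested.

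Msln, a mesothelial surface protein, rose by 0.99 in WT (limma adjusted p = 0.013) and 0.74 in Pxr-/- (adjusted p = 0.0393), alone among 7 measured mesothelium genes, whose summed level was 11.49 to 12.23 in WT CONT, 12.09 to 12.62 in WT PCN, 11.51 to 12.12 in Pxr-/- CONT and 11.68 to 12.74 in Pxr-/- PCN. The 9 B cell genes measured had a median effect of 1.42 in WT and 0.44 in Pxr-/- with no call, and their summed level in WT PCN had a median of 11.38 and a highest array of 13.86, against 11.11 and 11.31 in WT CONT. Ms4a1 had a mean of 8.82 ± 2.20 (SD, n = 5) in WT PCN but a median of 7.36, with a highest array of 11.34, so the higher mean rested on a minority of the arrays. Of 10 adipocyte genes, a cell type that can express Saa3, Pck1 was called on average (1.14, limma adjusted p = 0.0283). The averaged effects of this list ran from -0.41 to 1.14 with a median of -0.02, and none was called within WT or Pxr-/-. None of 10 plasma cell and IgA genes was called for PCN, beside the values of Pigr. None of the 11 enterocyte and 6 ileum genes was called, with median averaged effects of 0.00 and -0.00. Whether the lower Saa1 and Saa2 values go with the makeup of the tissue was not tested.

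**Figure D5:**
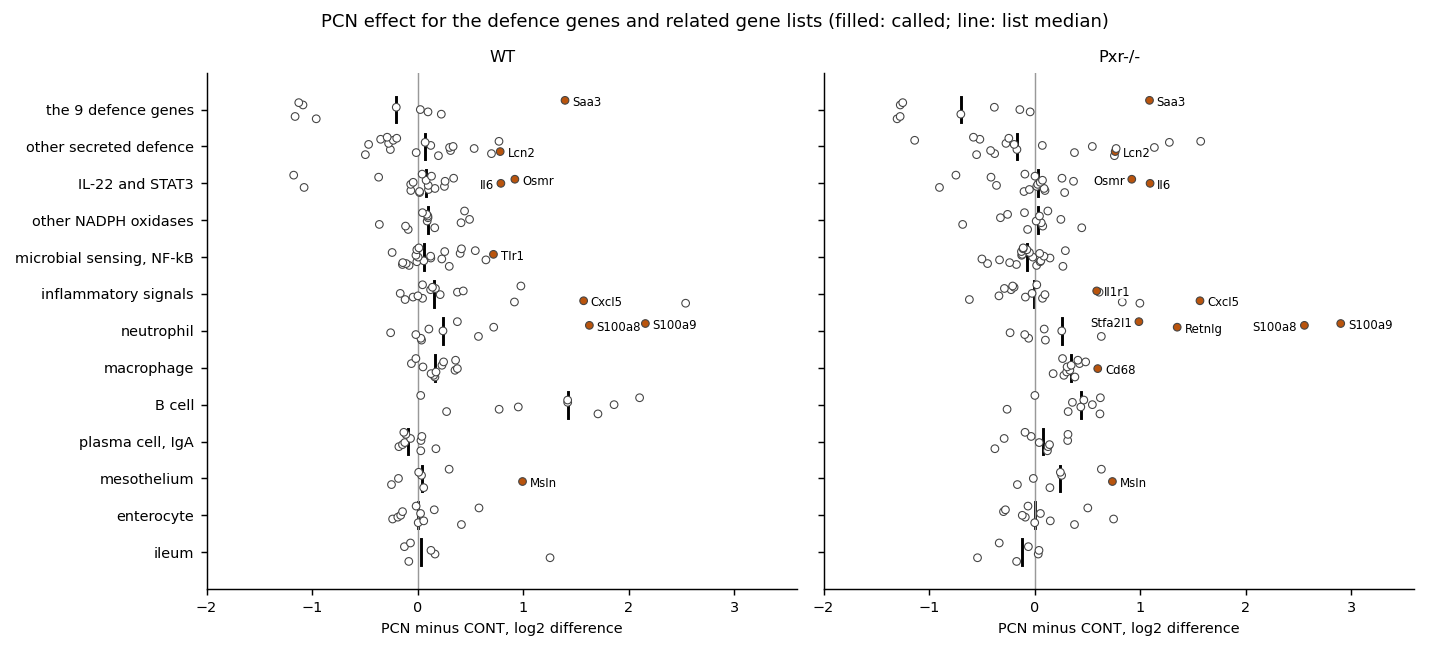
PCN minus CONT (log2 difference) in WT (left) and Pxr-/- (right) for each measured gene of the 9 members and of related lists, 1 point per gene and a black line at the list median; filled points are called and named. Saa3, Lcn2, Il6, Osmr, Cxcl5, S100a8, S100a9 and Msln are filled in both genotypes, and no enterocyte, ileum, plasma cell or NADPH oxidase gene is filled in either.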

How the data were processed

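RNA of 23 ilea was hybridised to single-colour Agilent arrays from 150 ng per sample. Scanner files deposited by the authors (Agilent Feature Extraction 10.10.1.1, per the submitters' notes) hold the intensity of each spot on a linear scale. The authors also deposited a log2 table, which the study's methods describe as median signal, filtered, with the wash batch corrected and CrossNorm applied. All 23 columns had the same quantiles when checked. Those methods were written for liver of the same mice. This table was used as it stands, since scanner values carry the wash batch.

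limma 3.58.1 (R 4.3.3) fitted 4 groups and wash batch to 23 arrays, 2-sided, with Benjamini-Hochberg adjustment over 37161 probes. Calls needed an adjusted p of at most 0.05 and over 1.5-fold. The fit was tested on simulated data. The number of arrays limits the precision. Correlations used permutation tests in numpy with 100000 resamples, which shuffled the deviations freely over the 23 arrays. Summed list levels are log2 of summed linear values. The alternatives covered other normalizations of the scanner signal (quantile, median centring, 75th percentile of processed signal, normexp), filters on dim probes, slide as a random or fixed block, the replicate number as a block, single batches and leaving out each array.

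All members and the probes that read them are described, plus, from each list, at most 3 called genes per comparison and otherwise at most 2 by size, and some of the 5 genes most like each member. A few others (Mpo, Elane, Camp, Ly6g, Csf3r and Stfa2l1) were named after their values were seen. Members and lists were chosen with earlier results of these data known. Same-numbered arrays of different groups are different mice, and p-values measure the spread between mice.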

Additional observations from a re-analysis of the deposited data

Results flagged for a closer look

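In 48 combinations of member probe and group, 1 array lay far from the rest by Dixon's gap ratio at the 95% level, and chance alone gives about 1 in 20, or 2.4 here. Duox2 read 10.17 on Pxr-/- CONT replicate 4, the lowest of its 6 arrays, with a gap of 0.695 of the group's range. The other Duox2 probes and Duoxa2 were also lowest on that array, at 8.44, 10.26 and 11.49, with gaps of 0.477, 0.469 and 0.501 of the range, too small to pass the same limit. Without that array the averaged PCN effect was called for Duox2 (-1.24, limma adjusted p = 0.0402) and Duoxa2 (-1.37, adjusted p = 0.0419). No test of a difference between the PCN effects in the 2 genotypes passed for a member.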

How the results depend on the processing

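Of 1930 values of member differences under the alternatives, 1847 kept their direction and their side of the threshold. Of the rest, 49 lost a call, 16 gained one and 18 changed direction, none of these 18 with a call. For genotype under PCN only Saa1, Saa2 and Saa3 were counted, and for the difference between the PCN effects only Saa3 and Nos2. Changes of direction of the other members in those 2 comparisons are therefore not in these numbers. The count of members called was 0 for the difference between the PCN effects and for genotype under PCN in every alternative run. For PCN in WT it fell from 1 to 0 with slide as a fixed block, with only the compared groups, and within wash batch 1 or 2, and leaving out 1 array gave 0 to 1. For PCN in Pxr-/- it fell from 1 to 0 with the 75th percentile of processed signal, median centring, no filter on dim probes, a trended robust spread, and within wash batch 1 or 2, was 2 (Saa3, Duox2) with slide as a fixed block, and was 0 to 1 without 1 array. For averaged PCN it went from 3 to 5 with slide as a fixed block, 0 within batch 1 and 1 (Saa3) within batch 2, with 1 to 5 without 1 array. For genotype in CONT it was 0 to 1 without 1 array. For averaged genotype it fell from 1 to 0 with slide as a fixed block and within wash batch 1 or 2, with 0 to 2 without 1 array. Batches hold 11 and 12 arrays, so fewer samples are tested there. The cause of the other changes was not tested.

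Reg3b in WT turned to -0.0056 (median centring), -0.0038 (slide as a fixed block) and -0.0089 (batch 2). Pigr on average turned to -0.0226 (median centring), -0.0198 (batch 1), -0.0038 (mean of probes) and -0.0353 (chromosome 1 probe), from -0.0011 to 0.047 without 1 array, and in Pxr-/- to 0.0075 (batch 2). Reg3g in WT turned to 0.0447 (batch 1). Nos2 in WT turned to -0.381 (batch 1), from -0.14 to 0.46 without 1 array, and its averaged genotype difference to -0.220 (batch 2), from -0.035 to 0.27. Duoxa2 between genotypes in CONT turned to -0.147 (batch 1).

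With the replicate number as a block, the count fell from 1 to 0 for PCN in Pxr-/- (Saa3 1.09, limma adjusted p = 0.0609) and for averaged genotype (Saa3 0.92, adjusted p = 0.0551), and changed for no other comparison. The numbers share only a label: deviations of 33 same-numbered pairs correlated at -0.21 to 0.43, and 8 of 23 arrays correlated best with their own number.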

Other observations

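Saa3 and Saa1 were set against each other within each group after a pattern was seen in their plot. In Pxr-/- CONT the 6 arrays had the reverse order in the 2 genes, with a Pearson r of -0.990 and a Spearman rho of -1.0. The r was 0.736 in WT CONT (6 arrays), -0.361 in WT PCN (5 arrays) and 0.399 in Pxr-/- PCN (6 arrays). These are descriptions of a pair and a group picked for their values among 44 pairs and 4 groups, so no p is given, and the difference between the groups was not tested.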
